A study of Mus musculus with 14 samples.

Results

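Tetraspanins were followed in the lungs of mice that lack a member of the family. The family was taken as a list of 31 mouse genes, and its members were chosen as the probe sets (groups of probes for a transcript) annotated with exactly 1 gene symbol from that list. This gave 63 of the 45101 probe sets on the array, for 29 of the 31 genes. Cd63 and Tspan7 were not analysed here. After a filter on low signal 27 members were tested among 12985 genes, and Prph2 and Tspan10 lay below the filter. The 14 samples were total RNA of whole lungs from C57BL/6 mice aged 20 weeks, each hybridised to 1 Affymetrix array. Mice of the genotype CD151KO gave 5 samples, mice of the genotype CD9KO gave 5, and wild type mice gave 4, numbered 1, 3, 4 and 5. All groups share the strain label C57BL/6, and the sources used here do not give how the alleles were made or which exons they lack. Whether each lung sample of a genotype is from its own mouse is not stated in the labels. The p-values therefore cover the spread among these arrays alone, and that spread may be technical.

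Tetraspanins are small proteins that span the membrane and gather integrins, immunoglobulin superfamily proteins, proteases and each other into clusters at the cell surface. CD151 attaches directly to laminin-binding integrins, and CD9 binds the EWI proteins and takes part in membrane fusion. Members can share partners, so the comparisons ask whether the transcripts of the other members differ in lungs that lack CD151 or CD9.

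The arrays were alike in scale, with medians between 84.1 and 86.2 in linear signal units, and precision was limited by how many arrays each genotype had. Markers of lung epithelium were high in every group: the summed signal of 7 alveolar type 2 markers was 87746 to 92547 in CD151KO, 85853 to 89641 in CD9KO and 86360.0 to 91041 in wild type. Array number 1 of CD151KO and array number 1 of wild type stood apart from the rest in a principal component analysis (first component scores -17.29 and -18.59, the other 12 arrays -7.99 to 13.34). On the same component all CD9KO arrays, at 7.24 to 13.34, lay above every CD151KO and wild type array, of which the highest was 2.5. The mean signal of the BioB probe sets, a bacterial control RNA, was 363 to 424 in CD151KO and 361 to 444 in CD9KO, above the 314 to 354 of wild type, and whether this entered the wild type comparisons was not tested. The comparisons share arrays, since wild type serves both knockouts, so they are not independent of each other. In whole lung, fewer cells of a type and less RNA per cell cannot be told apart. Differences are on the log2(signal + 16) scale, each with its 95% interval in brackets and limma's Benjamini-Hochberg adjusted p over all 12985 genes. Passing the test means that this value was under 0.05.

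The deleted genes are described with Tspan4, which was the member other than Cd151 that fell in CD151KO. For each gene the stretch before its most 5′ RefSeq transcription start is printed on the gene's own strand (build GRCm38.p6), with bases inside the span of a protein-coding gene left out. Capitals mark the GC box GGGCGG, or CCGCCC where it lies on the opposite strand. The Cd151 stretch is chr7:141467112-141467361 on the plus strand, and the Tspan4 stretch is chr7:141475154-141475235 on the plus strand, the 82 bases between the start of Tspan4 and that of Polr2l. The Cd9 stretch is chr6:125494761-125495010 on the minus strand. The Cd151 and Cd9 stretches lie within the annotated spans of the lncRNA genes Gm10575 and Gm26728.
Cd151: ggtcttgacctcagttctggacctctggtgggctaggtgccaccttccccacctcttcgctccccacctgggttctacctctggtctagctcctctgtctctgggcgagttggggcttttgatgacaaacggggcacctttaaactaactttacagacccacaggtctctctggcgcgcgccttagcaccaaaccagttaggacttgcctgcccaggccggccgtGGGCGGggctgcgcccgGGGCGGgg
Tspan4: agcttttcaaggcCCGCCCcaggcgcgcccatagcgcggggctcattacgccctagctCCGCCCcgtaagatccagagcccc
Cd9: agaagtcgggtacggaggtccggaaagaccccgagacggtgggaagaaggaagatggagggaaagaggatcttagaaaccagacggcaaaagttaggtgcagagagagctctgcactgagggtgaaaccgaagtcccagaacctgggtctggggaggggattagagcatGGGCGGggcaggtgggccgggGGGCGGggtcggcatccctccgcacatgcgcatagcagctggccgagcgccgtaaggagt
Each of these stretches held 2 GC boxes and none held TATAAA. Among 27025 mouse promoters of 250 bases a GC box on either strand was found in 33.0%, and among the 29 members with an entry in 15. A match says only that these letters are present.

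Cd151 had signals of 1065, 1072, 1027, 1064 and 1061 in CD151KO and 5215, 4912, 5062, 4867 and 4880.2 in CD9KO, against 5832, 5115, 4991 and 5379.6 in wild type. The CD151KO arrays lay far below all others, with a difference from wild type of -2.31 (-2.40 to -2.23; limma adjusted p = 9.07e-15). In CD9KO the difference of Cd151 from wild type was -0.09 (-0.18 to -0.01; limma adjusted p = 0.167). The other Cd151 probe sets above the filter differed by -0.05 to 0.06 in CD9KO, with both signs. In a fit of every probe set they did not pass (limma adjusted p = 0.501 to 0.794). Cd9 had signals of 638, 684, 614.5, 649.5 and 749 in CD9KO and 7861, 8501, 8135, 8185 and 8476 in CD151KO, against 8105, 8116, 7998 and 8163 in wild type. It fell by 3.57 in log2 in CD9KO (-3.67 to -3.47; limma adjusted p = 9.53e-17), and in CD151KO its difference from wild type was 0.02 (-0.08 to 0.12; limma adjusted p = 0.905). Each deleted gene was thus low in its own knockout, and neither passed the test in the other knockout.

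Tspan4, a tetraspanin known from migrasomes, the vesicles that migrating cells leave behind, fell in CD151KO. Its signals were 932, 1349.8, 1183, 1219 and 1111 in CD151KO and 2038, 1849, 1768, 1903 and 1906 in CD9KO, against 2001, 1865, 2041 and 2074 in wild type. All 5 CD151KO arrays lay below the other 9. The means were 1159 ± 154 in CD151KO and 1893 ± 98.8 in CD9KO (SD, n = 5 each), against 1995 ± 91.7 in wild type (n = 4). The difference from wild type was -0.78 (-0.95 to -0.62; limma adjusted p = 0.000262), and that from CD9KO was -0.71 (-0.87 to -0.55; limma adjusted p = 0.000157). In CD9KO against wild type it was -0.08 (-0.24 to 0.09; limma adjusted p = 0.566). The fall in CD151KO passed under all 27 alternative settings, between -0.84 and -0.71.

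Tspan4 is also the nearest family member to Cd151 on the chromosome. Every CD151KO sample carries the Cd151 allele, so an effect of that allele on the gene beside it and an effect of missing CD151 cannot be told apart in this design. The starts of Cd151 and Tspan4 lie 7874 bases apart on chromosome 7, both on the plus strand, with 1 protein-coding gene between them, Polr2l, which was not analysed here. Polr2l starts on the opposite strand 83 bases before Tspan4. On the other side of Cd151 lies Cracr2b, a gene of calcium channel regulation, which had 797, 836, 787, 815 and 773 in CD151KO, against 1117, 947, 890.0 and 897 in wild type, a difference of -0.25 (-0.37 to -0.14; limma adjusted p = 0.0474). Against CD9KO, with 943, 956, 975, 910.5 and 953, it was -0.24 (limma adjusted p = 0.0122). The call against wild type held in 5 of 27 alternative settings and that against CD9KO in all 27. Further neighbours did not pass in CD151KO against wild type, with differences of -0.05 for Pnpla2 (limma adjusted p = 0.81), -0.04 for Rplp2 (0.698) and 0.12 for Chid1 (0.396). Between the knockouts Pnpla2 passed, with a difference of CD151KO from CD9KO of -0.28 (limma adjusted p = 0.00525). Pnpla2 was also higher in CD9KO than in wild type, by 0.23 (limma adjusted p = 0.0276). Cd81 and Tspan32 lie on the same chromosome with 39 and 38 protein-coding genes between them and Cd151, and neither passed. Near Cd9 on chromosome 6 the members are Tspan11 and Tspan9, with 18 and 19 protein-coding genes between, and neither passed in CD9KO, although Tspan9 did with the mean of all its probe sets (0.14; limma adjusted p = 0.0462).

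**Figure D1:**
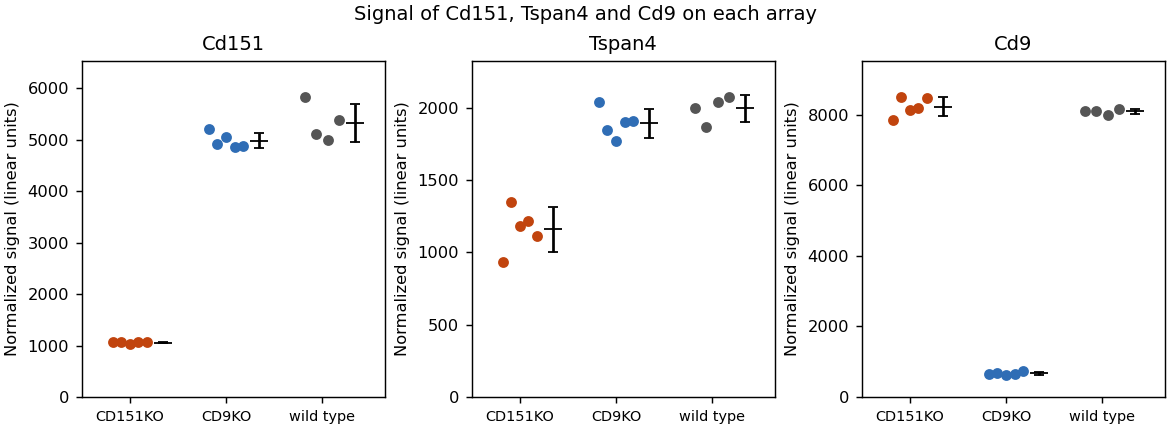
Signal (linear units) of Cd151, Tspan4 and Cd9 in CD151KO, CD9KO and wild type. Dots are arrays and black bars are means ± SD; Cd151 is low in CD151KO, Cd9 is low in CD9KO, and all 5 Tspan4 dots of CD151KO (932 to 1349.8) lie below those of the other groups.

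In CD151KO against wild type, 0 of 27 members rose, 2 fell and 25 did not pass, while 59 of all genes (0.454%) rose and 42 (0.323%) fell, 0.778% in all. Without Cd151 the count was 1 of 26, which was Tspan4, and 4 of the 26 had an unadjusted p under 0.05, against 11.1% of all genes. The median difference of these 26 was 0.02, against 0.008 over all genes, with 16 positive and 10 negative. For 20 of the 26 the 95% interval lay within a 1.2-fold difference in either direction.

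Tspan11, a relative of CD151 in family trees of the tetraspanins, had the smallest p of the members that did not pass in this comparison. Its signals were 306, 345, 292, 352 and 395 in CD151KO, against 252, 283, 272 and 244 in wild type. All CD151KO arrays lay above all wild type arrays, and the difference was 0.34 (0.17 to 0.51; limma adjusted p = 0.0780). It passed under 1 of 27 alternative settings, array weights (limma adjusted p = 0.0215). In CD9KO the signals were 257, 304, 267, 299 and 315, a difference from wild type of 0.12 (-0.05 to 0.30; limma adjusted p = 0.352).

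Upk1b, a tetraspanin of the uroplakin plaques of bladder epithelium, had 703.5, 585, 628, 687 and 768 in CD151KO, against 469.6, 559.5, 577 and 611 in wild type. The groups overlapped, and the difference was 0.28 (0.04 to 0.51; limma adjusted p = 0.346). In CD9KO it ranged from 493 to 741. The markers of mesothelium Msln, Upk3b, Wt1 and Lrrn4 had a summed signal of 1581 to 1934 in CD151KO and 678 to 1918 in CD9KO, against 1238 to 1586 in wild type. All 4 mesothelial differences were positive in CD151KO (0.17 to 0.35) and 0 passed, and their part in the value of Upk1b was not tested. The urothelial markers Upk2 and Upk3a summed to 207 to 244 in CD151KO and 195 to 235 in CD9KO, against 222 to 235 in wild type.

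Tspan13 had 5429.8, 5828, 4999, 5298 and 4749 in CD151KO, against 6423, 5822, 5389.6 and 5598 in wild type. The groups overlapped, and the difference of -0.14 (-0.28 to -0.01) did not pass (limma adjusted p = 0.407).

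**Figure D2:**
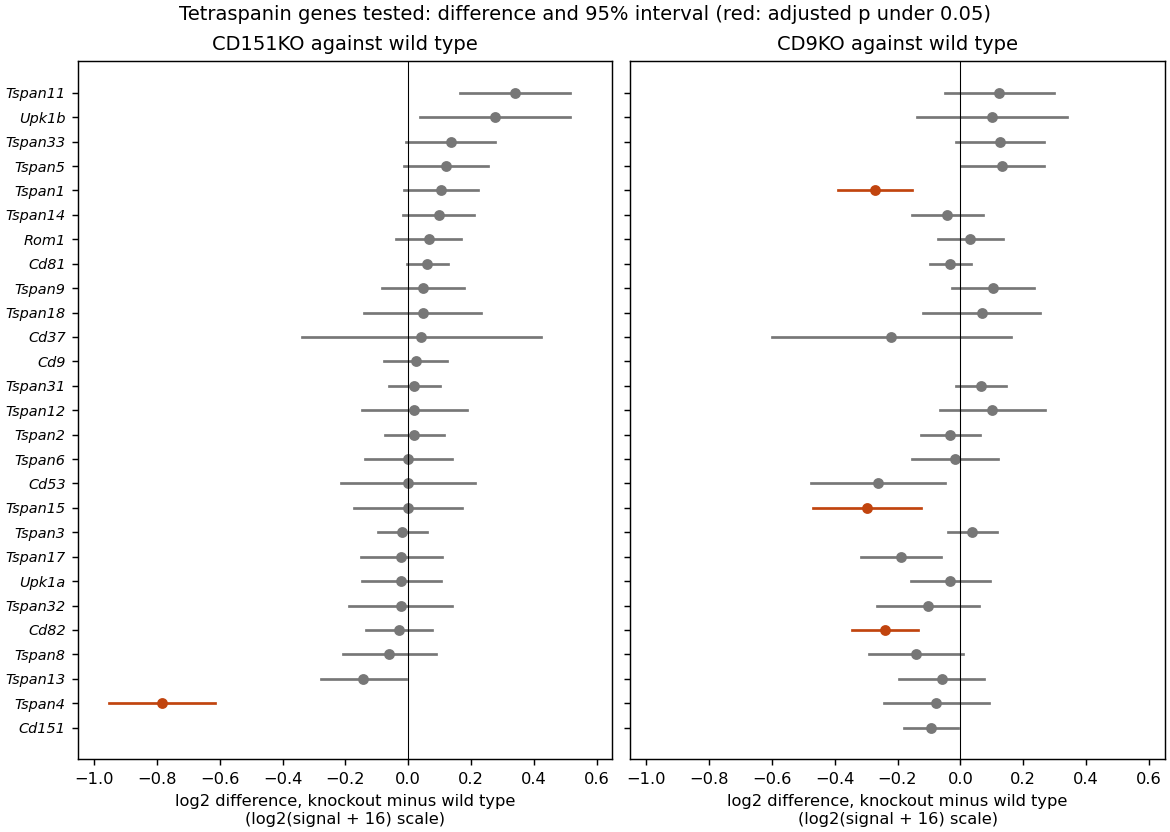
Log2 differences with 95% intervals for the members tested, in CD151KO against wild type and CD9KO against wild type. Each panel leaves out its own deleted gene; in CD151KO Tspan4 stands apart at -0.78, and in CD9KO Tspan15, Tspan1 and Cd82 lie between -0.30 and -0.24.

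In CD9KO against wild type, 0 of 27 members rose, 4 fell and 23 did not pass, while 372 of all genes (2.86%) rose and 337 (2.60%) fell, 5.46% in all. Without Cd9, 3 of 26 fell (11.5%), which were Tspan1, Cd82 and Tspan15, and 7 of the 26 had an unadjusted p under 0.05, against 25.4% of all genes. The median of the 26 was -0.032, against 0.004 over all genes, with 10 positive and 16 negative. For 13 of the 26 the interval lay within a 1.2-fold difference.

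The stretches before the starts of the 3 genes are shown as those before Cd9 and Tspan4 were. The Tspan1 stretch is chr4:116167622-116167848, the Cd82 stretch chr2:93462951-93463200 and the Tspan15 stretch chr10:62231277-62231468, all on the minus strand.
Tspan1: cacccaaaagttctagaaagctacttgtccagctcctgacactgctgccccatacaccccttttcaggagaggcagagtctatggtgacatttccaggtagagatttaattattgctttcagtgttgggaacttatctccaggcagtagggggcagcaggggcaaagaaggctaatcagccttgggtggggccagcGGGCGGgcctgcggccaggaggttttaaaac
Cd82: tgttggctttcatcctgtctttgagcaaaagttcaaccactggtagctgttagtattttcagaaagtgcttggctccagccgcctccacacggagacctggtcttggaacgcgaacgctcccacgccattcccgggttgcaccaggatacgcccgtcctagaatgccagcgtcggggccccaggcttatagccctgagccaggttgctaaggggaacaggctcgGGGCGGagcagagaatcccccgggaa
Tspan15: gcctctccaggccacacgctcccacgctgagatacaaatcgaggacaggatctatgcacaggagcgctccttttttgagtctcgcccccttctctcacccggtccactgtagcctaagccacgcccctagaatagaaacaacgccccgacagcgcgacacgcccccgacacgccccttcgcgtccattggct
Tspan1 and Cd82 held 1 GC box each and Tspan15 held 0, and the Cd82 stretch lies within the annotated span of the lncRNA gene Gm10804. Thus no motif searched was common to the 3 stretches. In the whole 250 bases before its start Tspan15 alone among them held CCAAT (or ATTGG on the opposite strand), which is found in 34.5% of mouse promoters and in 8 of 29 member promoters.

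Tspan1, a tetraspanin of epithelial cells studied mostly in carcinomas, had 1033, 1065, 1006, 997 and 893 in CD9KO (mean 999 ± 64.7, SD, n = 5). Wild type gave 1244, 1197, 1184 and 1203 (mean 1207 ± 26.2, n = 4), so that every CD9KO array lay below every wild type array. The difference was -0.27 (-0.39 to -0.15; limma adjusted p = 0.0177), and it missed the threshold without wild type array 3 (limma adjusted p = 0.0515). In CD151KO the signals were 1223, 1189.95, 1307, 1386 and 1398, and the difference from wild type of 0.10 (-0.01 to 0.22) did not pass (limma adjusted p = 0.52).

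Cd82, first known as a suppressor of metastasis and present on leukocytes and epithelium, had 1743, 1728, 1658, 1685 and 1621 in CD9KO (mean 1687 ± 50.3, n = 5). Wild type gave 2178, 2044, 1928 and 1842 (mean 1998 ± 146, n = 4), again with no overlap. The difference was -0.24 (-0.35 to -0.13; limma adjusted p = 0.0193), and it missed the threshold in 3 of 27 alternative settings, which were the mean of all probe sets, without wild type array 3 and without CD9KO array 5. In CD151KO Cd82 had 2104, 1870.35, 2038, 1888 and 1881, a difference from wild type of -0.03 (-0.14 to 0.08; limma adjusted p = 0.887).

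Tspan15, a TspanC8 member that escorts the sheddase ADAM10, had 619.7, 618, 575, 559.6 and 595 in CD9KO (mean 594 ± 26.3, n = 5). Wild type gave 818, 781, 641 and 701 (mean 735 ± 79.5, n = 4), and the highest CD9KO array lay just below the lowest of wild type. The difference of -0.30 (-0.47 to -0.13; limma adjusted p = 0.045) is close to the threshold, and it passed in 12 of 27 alternative settings. It failed in 15 (limma adjusted p up to 0.127), among them quantile normalization and median centring. Leaving out any CD9KO array, wild type array 1, 3 or 5, or CD151KO array 3 or 4 also lost the call. So did leaving out array 1 of wild type and of CD151KO together. CD151KO gave 847, 800.2, 692, 693 and 644, a difference from wild type of -0.00 (-0.17 to 0.17; limma adjusted p = 0.997).

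Markers of airway and alveolar epithelium were read beside these values. The summed signal of 5 club cell markers was 73855 to 85718 in CD9KO and 85120.3 to 90714 in CD151KO, against 81087 to 83649.8 in wild type, and that of 7 ciliated cell markers was 6384 to 7185 in CD9KO and 6732 to 8208 in CD151KO, against 6988 to 7615 in wild type. None of the 5 and none of the 7 passed in either knockout against wild type, while 2 club markers were higher in CD151KO than in CD9KO. The 7 alveolar type 1 markers summed to 53692 to 56275 in CD9KO and 51417 to 56715 in CD151KO, against 54192 to 56475 in wild type, and 0 passed against wild type.

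Some markers of muscle, vessels and connective tissue passed in CD9KO. Of 5 smooth muscle markers 3 rose against wild type (Cnn1 by 0.46, Myh11 by 0.29 and Tagln by 0.26; limma adjusted p of 0.015 to 0.0439), and their summed signal was 7976 to 9446 in CD9KO and 7395 to 8634 in CD151KO, against 6559.8 to 7383 in wild type. Of 6 cardiac muscle markers 1 rose, Myh6 by 0.72 (limma adjusted p = 0.0276), with a sum of 7769 to 10905 in CD9KO and 5394 to 9792 in CD151KO, against 6004 to 7216 in wild type. The endothelial marker Emcn fell by 0.44 (limma adjusted p = 0.0315), 1 of 7 in its list, and the fibroblast marker Pdgfra rose by 0.26 (limma adjusted p = 0.0314), 1 of 6. The smooth muscle and cardiac sums of CD9KO thus lay above those of wild type on every array, and so did the smooth muscle sums of CD151KO, where 0 of these 5 markers passed. The 4 lymphatic endothelial markers also summed higher on every CD9KO array, at 8615 to 11232, against 5792 to 7363 in wild type. In CD151KO their sum was 5026 to 8735, and 0 of the 3 tested passed in either knockout against wild type. The part of any of these cells in the 3 members was not tested.

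**Figure D3:**
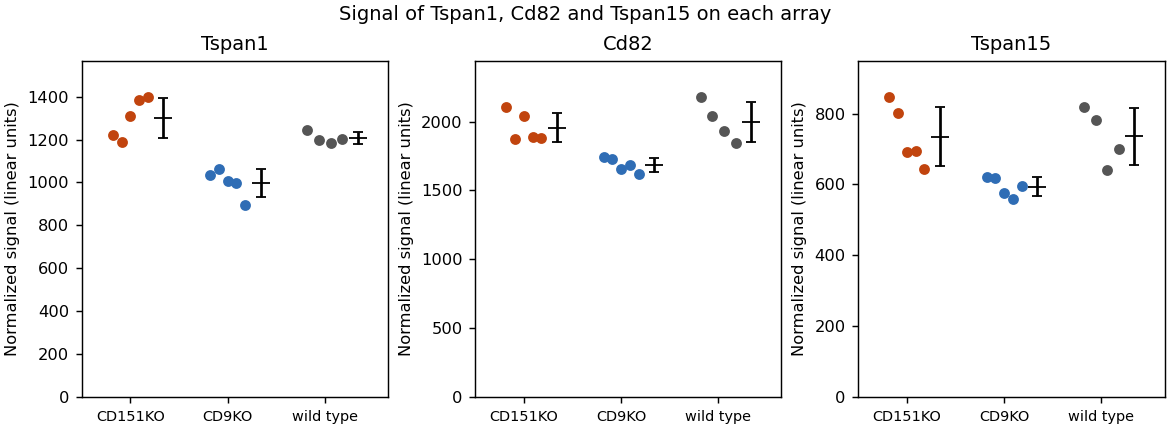
Signal (linear units) of Tspan1, Cd82 and Tspan15 in CD151KO, CD9KO and wild type. Dots are arrays and black bars are means ± SD; for each gene the 5 CD9KO dots lie below all dots of wild type and of CD151KO.

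Next by p in CD9KO, leaving out Cd151 (given above), came Tspan17, Cd53 and Tspan5, which did not pass. Tspan17, another TspanC8 member, had 386, 364, 389, 403 and 354 in CD9KO, against 474, 451, 388 and 428 in wild type, with a difference of -0.19 (-0.32 to -0.06; limma adjusted p = 0.0712). It passed without wild type array 4 (limma adjusted p = 0.0421). Tspan5, also a TspanC8 member, had 343, 295, 299.9, 284 and 274 in CD9KO, against 295, 253, 259 and 277 in wild type, a difference of 0.13 (0.0007 to 0.27; limma adjusted p = 0.194). In both genes the groups overlapped.

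Between the knockouts, CD151KO against CD9KO, 4 members were higher, 2 were lower and 21 did not pass, while 780 of all genes (6.01%) were higher and 537 (4.14%) were lower, 10.1% in all. Without Cd151 and Cd9, 3 of 25 were higher and 1 was lower, a share of 16%, and 9 of the 25 had an unadjusted p under 0.05, against 27.6% of all genes. The median of the 25 was 0.051, against 0.002 over all genes, with 17 positive and 8 negative. The higher members were Tspan1 (0.38, 0.26 to 0.49; limma adjusted p = 0.00137), Tspan15 (0.30, 0.13 to 0.46; 0.0246) and Cd82 (0.21, 0.11 to 0.31; 0.0128), and for each of them every CD151KO array lay above every CD9KO array. The lower member was Tspan4. Tspan15 missed the threshold in 5 of 27 alternative settings (without CD151KO array 1 or 2, or CD9KO array 3, 4 or 5) and Cd82 in 1, the mean of all probe sets (limma, 0.183), while Tspan1 and Tspan4 passed in all 27.

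Cd81, a close relative of CD9, came nearest to the threshold among the rest. It had 5255, 5273, 5236, 5242 and 5141 in CD151KO and 5146, 4846, 4809, 4739 and 4993 in CD9KO, against 5056, 5219, 4830.2 and 4956 in wild type. Its lowest CD151KO array lay just below the highest of CD9KO, and the difference between the knockouts was 0.09 (0.03 to 0.15; limma adjusted p = 0.0528), which passed in 5 of 27 alternative settings, among them those without wild type array 1 and without CD9KO array 1. Against wild type Cd81 differed by 0.06 in CD151KO (-0.004 to 0.13; limma adjusted p = 0.476) and by -0.03 in CD9KO (-0.10 to 0.03; limma adjusted p = 0.53). All of these intervals lie within a 1.2-fold difference.

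Tspan17 had 428, 475, 412, 409.5 and 414 in CD151KO, a difference from CD9KO of 0.17 (0.05 to 0.29; limma adjusted p = 0.0737) that passed without wild type array 1 (0.0469). Tspan14, a TspanC8 member, had 1193, 1094, 1152, 1072 and 1054 in CD151KO and 1011, 951, 979.9, 1005 and 1100.2 in CD9KO, against 1133, 1036, 971 and 1019 in wild type. Its groups overlapped, and the difference between the knockouts was 0.14 (0.03 to 0.24; limma adjusted p = 0.0869).

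By role, the leukocyte members Cd37, Cd53, Cd82 and Tspan32 gave 0 passes in CD151KO and 1 in CD9KO, Cd82. Cd53, present on nearly all leukocytes, had 1613, 1249, 1444, 1139.6 and 1272 in CD151KO and 1134, 1003, 1166, 1061 and 1201 in CD9KO, against 1598, 1302, 1346 and 1133 in wild type. Its difference from wild type was -0.00 in CD151KO (-0.22 to 0.21; limma adjusted p = 0.997) and -0.26 in CD9KO (-0.48 to -0.05; limma adjusted p = 0.118). Cd37, a tetraspanin of mature B cells, had 329.6, 171, 218, 172 and 171 in CD151KO and 187, 157, 161, 147 and 196 in CD9KO, against 285, 177, 186 and 167 in wild type. The highest arrays of CD151KO and of wild type were number 1 in each case, for Cd53 and Cd37 and also for Cd82 and Tspan15. The difference of Cd37 was 0.04 in CD151KO (-0.34 to 0.42; limma adjusted p = 0.957) and -0.22 in CD9KO (-0.60 to 0.16; limma adjusted p = 0.454), and both intervals are wide. Tspan32, found in blood-forming cells, ranged from 175 to 224 in CD151KO and from 162 to 197 in CD9KO, against 187 to 224 in wild type. The differences of Tspan32 were -0.02 (-0.19 to 0.14; limma adjusted p = 0.94) in CD151KO and -0.10 (-0.27 to 0.06; limma adjusted p = 0.409) in CD9KO.

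Blood cell markers varied between arrays in the same comparisons. The mean log2 level of 7 B and plasma cell markers was 10.02 on CD151KO array 1 and 9.06 to 9.28 on the other CD151KO arrays, 8.80 to 9.18 in CD9KO, and 9.57 on wild type array 1 and 7.92 to 9.28 on the other wild type arrays. The mean log2 level of 4 of 5 listed neutrophil markers was 8.73 to 10.08 in CD151KO and 8.02 to 8.26 in CD9KO, against 8.38 to 9.40 in wild type, and all 4 were higher in CD151KO than in CD9KO. The 6 macrophage markers summed to 9054 to 13888 in CD151KO and 10499 to 12063 in CD9KO, against 9430.3 to 11319 in wild type, and 0 of them passed in any comparison. The part of these cells in Cd53, Cd37 and Cd82 was not tested.

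**Figure D4:**
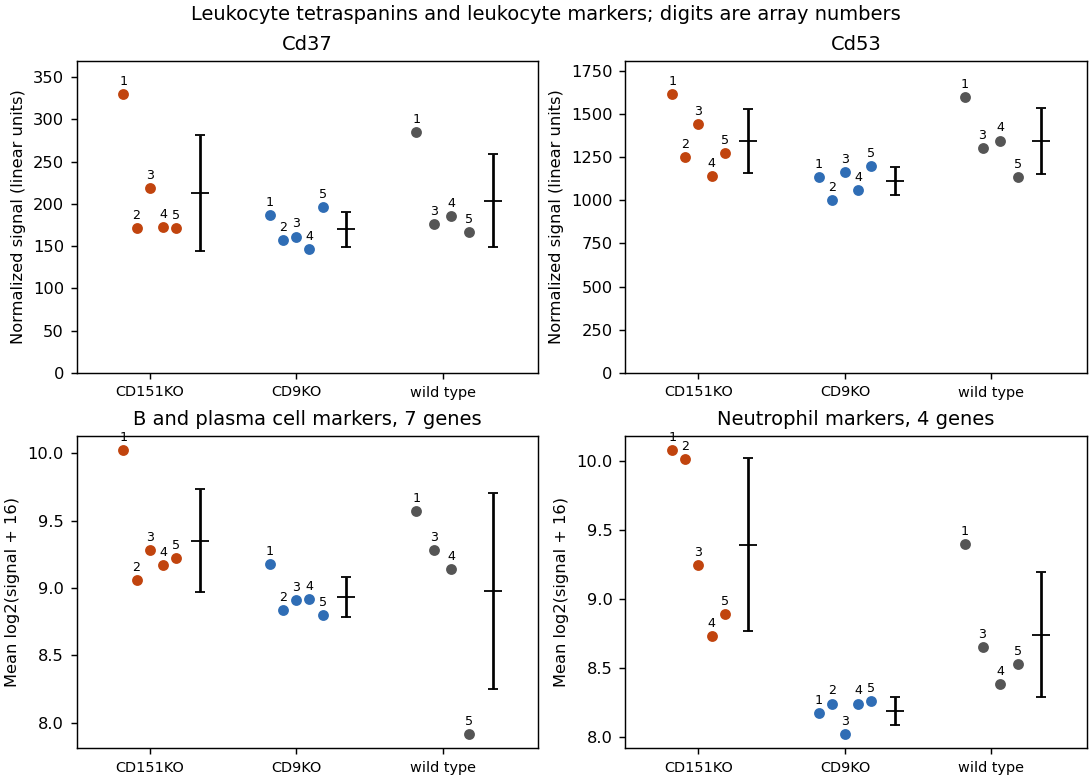
Signal (linear units) of Cd37 and Cd53, and mean log2(signal + 16) of 7 B and plasma cell markers and of 4 neutrophil markers, in CD151KO, CD9KO and wild type. Dots are arrays, digits their numbers, and black bars means ± SD; for Cd37 the highest dots of CD151KO (329.6) and of wild type (285) belong to array number 1 of each.

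Of the TspanC8 members, which bring ADAM10 to the cell surface, 5 of 6 were tested, with 0 passes in CD151KO and 1 fall in CD9KO, Tspan15. Tspan33, known from red cell precursors, ranged from 61.4 to 73.3 in CD151KO and from 56.6 to 73.7 in CD9KO, against 52.2 to 63.1 in wild type. The differences of Tspan33 were 0.14 (-0.01 to 0.28; limma adjusted p = 0.47) in CD151KO and 0.13 (-0.02 to 0.27; limma adjusted p = 0.244) in CD9KO. These levels are near the filter at a signal of 53.4. Tspan10 ranged from 29.2 to 34.2 in CD151KO and from 27.0 to 33.5 in CD9KO, against 28.3 to 37.4 in wild type, and was not tested.

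Upk1a, the partner of Upk2 in uroplakin plaques, ranged from 48.5 to 64.9 in CD151KO and from 55.7 to 59.8 in CD9KO, against 57.7 to 62.4 in wild type. The differences of Upk1a were -0.02 (-0.15 to 0.10; limma adjusted p = 0.931) in CD151KO and -0.03 (-0.16 to 0.09; limma adjusted p = 0.766) in CD9KO. Prph2 and Rom1 build the disc rims of photoreceptors. Rom1 ranged from 88.6 to 102 in CD151KO and from 85.4 to 94.3 in CD9KO, against 84.4 to 93.5 in wild type. The differences of Rom1 were 0.07 (-0.04 to 0.17; limma adjusted p = 0.669) in CD151KO and 0.03 (-0.07 to 0.13; limma adjusted p = 0.711) in CD9KO. Prph2 lay at 12.2 to 14.5 in CD151KO and 12.4 to 16.4 in CD9KO, against 12.2 to 16.4 in wild type, and was not tested.

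Among the remaining members 0 passed in any comparison. In each of them the arrays of either knockout overlapped those of wild type, except that the CD9KO arrays of Tspan8 all lay below wild type. Tspan8, known from carcinoma exosomes, ranged from 2891 to 3911 in CD151KO and from 2877 to 3223 in CD9KO, against 3309 to 3544 in wild type. The differences of Tspan8 were -0.06 (-0.21 to 0.09; limma adjusted p = 0.815) in CD151KO and -0.14 (-0.29 to 0.01; limma adjusted p = 0.217) in CD9KO. Tspan2, known from myelin-forming cells, ranged from 2140.1 to 2295 in CD151KO and from 1905 to 2223 in CD9KO, against 2107 to 2234 in wild type. The differences of Tspan2 were 0.02 (-0.08 to 0.11; limma adjusted p = 0.92) in CD151KO and -0.03 (-0.13 to 0.06; limma adjusted p = 0.682) in CD9KO. Tspan9, known from platelets, ranged from 1485 to 1649 in CD151KO and from 1555 to 1758 in CD9KO, against 1393 to 1738 in wild type. The differences of Tspan9 were 0.05 (-0.08 to 0.18; limma adjusted p = 0.834) in CD151KO and 0.10 (-0.03 to 0.23; limma adjusted p = 0.301) in CD9KO. None of these 3 had a difference from wild type outside -0.14 to 0.10.

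Tspan12 is a part of the Norrin receptor of retinal vessels, with Fzd4. Tspan12 ranged from 1025 to 1129 in CD151KO and from 998 to 1299 in CD9KO, against 891 to 1167 in wild type. The differences of Tspan12 were 0.02 (-0.15 to 0.19; limma adjusted p = 0.954) in CD151KO and 0.10 (-0.07 to 0.27; limma adjusted p = 0.428) in CD9KO. Tspan18, studied in endothelial calcium entry, ranged from 651 to 799 in CD151KO and from 631 to 816 in CD9KO, against 608 to 779 in wild type. The differences of Tspan18 were 0.05 (-0.14 to 0.23; limma adjusted p = 0.898) in CD151KO and 0.07 (-0.12 to 0.25; limma adjusted p = 0.649) in CD9KO. Tspan31, known from amplification in sarcomas, ranged from 1926 to 2089.9 in CD151KO and from 2025 to 2202 in CD9KO, against 1927 to 2091 in wild type. The differences of Tspan31 were 0.02 (-0.06 to 0.10; limma adjusted p = 0.899) in CD151KO and 0.06 (-0.02 to 0.14; limma adjusted p = 0.29) in CD9KO. Their differences from wild type were all positive and small beside their intervals. Tspan3 ranged from 1115 to 1178 in CD151KO and from 1124 to 1256 in CD9KO, against 1140.4 to 1199.5 in wild type. The differences of Tspan3 were -0.02 (-0.10 to 0.06; limma adjusted p = 0.9) in CD151KO and 0.04 (-0.04 to 0.12; limma adjusted p = 0.531) in CD9KO. Tspan6 ranged from 302 to 326 in CD151KO and from 265 to 338 in CD9KO, against 299.6 to 328 in wild type. The differences of Tspan6 were 0.0006 (-0.14 to 0.14; limma adjusted p = 0.998) in CD151KO and -0.02 (-0.15 to 0.12; limma adjusted p = 0.893) in CD9KO. For Tspan3 and Tspan6 the differences lay between -0.02 and 0.04.

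Of the 29 members 18 had several probe sets, and 56 of the 63 probe sets lay above the filter. Among the 16 members with several above it, the probe sets shared the sign of their difference from wild type in 10 in CD151KO and in 12 in CD9KO, and the rest had both signs. In the fit of every probe set, adjusted over 22951 of them, 4 Cd151 probe sets fell in CD151KO, with differences of -2.41 to -2.26, while another differed by -0.07 (limma adjusted p = 0.661) and the last lay below the filter. A probe set outside the deleted stretch checks nothing, and the sources used here do not say which stretch was deleted. Tspan4, Cd9, Cd81 and Tspan15 have 1 probe set each, so their values have no second measure.

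For Tspan1 the second probe set did not pass in CD9KO, with a difference of -0.14 (-0.24 to -0.05; limma adjusted p = 0.0609), and between the knockouts it passed at 0.25 (limma adjusted p = 0.00309). For Cd82 the second probe set differed by -0.10 in CD9KO (limma adjusted p = 0.367) and by 0.01 between the knockouts (limma adjusted p = 0.965), so it did not pass with this probe set. All 4 Tspan11 probe sets had positive differences in CD151KO (0.16 to 0.34) and in CD9KO (0.12 to 0.34), and 0 passed. All 4 Upk1b probe sets had positive differences in CD151KO (0.14 to 0.28), and 0 passed.

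In CD9KO against wild type the probe sets of Tspan8 were the most spread of any member. A Tspan8 probe set had 209.9, 220.2, 227, 247 and 271 in CD9KO and 114, 183, 162, 194 and 206 in CD151KO, against 156, 168, 185 and 192 in wild type. All CD9KO arrays lay above all others, with a difference from wild type of 0.39 (0.12 to 0.65; limma adjusted p = 0.0688) and a difference of CD151KO from CD9KO of -0.44 (limma adjusted p = 0.0357). The other 4 Tspan8 probe sets differed from wild type by -0.15 to 0.01 in CD9KO. A second Tspan18 probe set fell in CD9KO by 0.24 in log2 (limma adjusted p = 0.0424), against a difference of 0.07 for the probe set used for the gene, and a second Tspan13 probe set fell by 0.23 (limma adjusted p = 0.0463), against -0.06 for the probe set used for the gene. Whether these probe sets measure different transcripts was not tested.

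**Figure D5:**
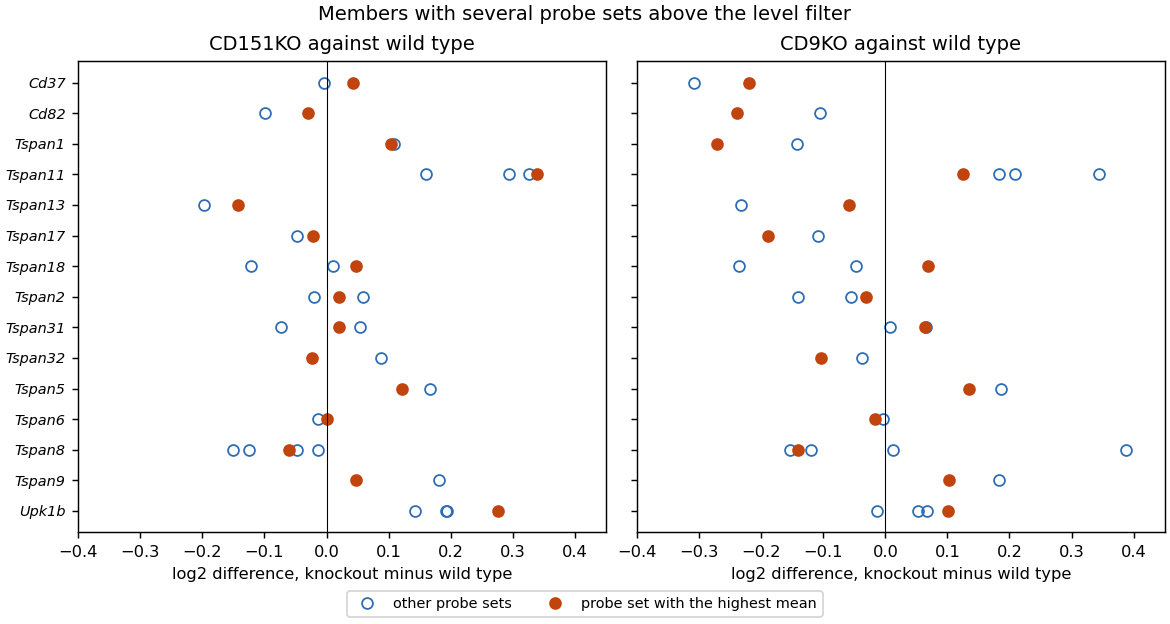
Log2 differences of every probe set above the filter, for members with several, in CD151KO against wild type and CD9KO against wild type. Filled dots are the probe sets used for the gene and open dots the others; in CD9KO a Tspan8 probe set at 0.39 lies apart from the other 4. Cd151 is left out.

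Of 73 listed partners of tetraspanins 67 were tested. In CD151KO 2 rose and 0 fell (2.99%), in CD9KO 3 rose and 1 fell (5.97%), and 12 were higher and 2 lower in CD151KO than in CD9KO (20.9%), to be read beside the 0.778%, 5.46% and 10.1% of all genes. The medians were 0.042 in CD151KO and -0.001 in CD9KO.

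Of the 2 partners that rose in CD151KO the larger difference was that of Zdhhc3, a palmitoyl transferase of the Golgi that acts on integrins. It had 1366, 1263.5, 1225, 1292 and 1258 in CD151KO and 947, 849, 965, 925 and 857 in CD9KO, against 943, 1075, 963 and 976 in wild type. All CD151KO arrays lay above all others, a rise of 0.37 over wild type (0.26 to 0.48; limma adjusted p = 0.00487) and 0.49 over CD9KO (limma adjusted p = 6.96e-05). Averaged over all its probe sets the difference of CD151KO from wild type was 0.17 (limma adjusted p = 0.114), since 2 of its 4 probe sets rose and the others differed by -0.08 and 0.05. In CD9KO against wild type 2 of the 4 passed, at -0.27 (limma adjusted p = 0.0306) and -0.24 (0.0496). The others, at -0.12 and -0.01, did not pass. Zdhhc2, the palmitoyl transferase known to act on CD9 and CD151, did not pass in either knockout. Adam17, a sheddase that binds tetraspanins, had 675, 688, 685, 666 and 696 in CD151KO, against 621, 599.7, 621 and 594 in wild type. Its rise of 0.16 (0.09 to 0.23; limma adjusted p = 0.0300) was lost in 12 of 27 alternative settings, among them those without any 1 of the CD151KO arrays and without wild type array 3, 4 or 5. Its other probe sets differed by 0.14 and 0.05 in CD151KO and did not pass (limma adjusted p = 0.446 and 0.759). In CD9KO against wild type they differed by -0.13 and -0.21 (limma adjusted p = 0.23 and 0.0257). There the probe set used for Adam17 differed by -0.03 (limma adjusted p = 0.511). It was higher in CD151KO than in CD9KO by 0.19 (limma adjusted p = 0.00197), which passed in all 27 alternative settings. Adam10, the sheddase that TspanC8 members escort, did not pass in any comparison.

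The laminin-binding integrin subunit Itga6, a direct partner of CD151, rose in CD9KO and did not pass in CD151KO. It had 3007, 3287, 2818, 3217 and 3168.5 in CD9KO and 2358, 2683.5, 3425, 2856 and 2948.5 in CD151KO, against 2257, 2273, 2379 and 2811 in wild type. The difference was 0.35 in CD9KO (0.16 to 0.54; limma adjusted p = 0.0373), lost in 7 of 27 alternative settings (both arrays numbered 1 left out, or wild type array 1, 3 or 4, or CD9KO array 2, 4 or 5), and 0.23 in CD151KO (0.04 to 0.42; limma adjusted p = 0.335). Between the knockouts it was -0.13 (-0.31 to 0.05; limma adjusted p = 0.350). Of the 11 listed integrin genes 0 passed in CD151KO, where Itga7 differed by 0.28 (limma adjusted p = 0.133), Itgb3 by 0.32 (0.219) and Itgb4 by 0.18 (0.327).

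Ap2m1, a subunit of the clathrin adaptor, rose in CD9KO by 0.16 (0.09 to 0.23; limma adjusted p = 0.0231). The kinase gene Prkca rose in CD9KO by 0.22 (limma adjusted p = 0.0395), and Cd44, the hyaluronan receptor, fell by 0.17 (limma adjusted p = 0.0395). The call of Ap2m1 was lost in 1 of 27 alternative settings, without wild type array 3 (limma adjusted p = 0.0686). Those of Prkca and Cd44 were lost in 11 and 13, among them those without wild type array 1, 3 or 4, or CD9KO array 1, 3, 4 or 5, and further without CD151KO array 4 for Prkca and array 3 for Cd44. The other Cd44 probe sets differed by 0.01 and -0.20 in CD9KO and did not pass (limma adjusted p = 0.879 and 0.131). Of the other Prkca probe sets, 1 passed in CD9KO at 0.26 (limma adjusted p = 0.0436) and 1 differed by -0.01 (limma adjusted p = 0.888). None of the 10 EWI and other immunoglobulin superfamily partners passed in any comparison, and of the Norrin receptor genes Fzd4 was lower in CD151KO than in CD9KO, with a difference of -0.26 (limma adjusted p = 0.0303). Against wild type Fzd4 differed by -0.0008 in CD151KO (limma adjusted p = 0.998) and by 0.26 in CD9KO (limma adjusted p = 0.0533). Rab27a and Rab27b, which drive the docking of exosome-bearing compartments, differed by 0.34 (limma adjusted p = 0.0577) and 0.39 (limma adjusted p = 0.0862) in CD151KO. Epcam (0.20; limma adjusted p = 0.00869), Met (0.19; 0.0185), Sdc1 (0.20; 0.00928) and Rab27b (0.41; 0.0125) were among the 12 partners higher in CD151KO than in CD9KO. The others were Cd44, Cd36, Zdhhc3, Ezr, Adam17, Mmp14, Psenen and Sdc4, and the lower partners were Fzd4 and Prkca.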

How the data were processed

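Per the labels, lungs were homogenised, total RNA was purified on columns, and labelled RNA was made from 500 ng for 1-colour arrays. The deposited values are normalized linear intensity values, 1 per probe set and array, per the labels of the columns. The tools listed per the submitters' processing notes are Affymetrix Expression Console and MAS5, without a stated role. The sources used here do not say how the authors summarised probes into intensity values. In 2322 probe sets (5.15%) the same value occurs on several arrays.

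Gene names came from the platform annotation, 1 symbol per probe set. The probe set with the highest average over the 14 arrays stood for its gene, and genes under the 40th percentile of mean log2 level (signal 53.4) were left out, 5208 of 18193. A 3-group model was fitted to log2(signal + 16) with limma 3.58.1 in R 4.3.3 (lmFit, eBayes with trend, 11 residual degrees of freedom), with Benjamini-Hochberg adjustment over 12985 genes, and the script was tested on simulated data. Folds understate changes of low signals. Python 3.11.15 with matplotlib 3.10.9 drew the figures. Promoter sequences are RefSeq's (GRCm38.p6), and 29 of 31 members matched.

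The members, gene lists and settings were chosen with earlier results of these data known. Values on every array are given for Cd151, Cd9 and members that passed in any comparison. For up to 3 further members per comparison by smallest p they are given at least for the groups compared. The partners that passed are named, with some that did not. Among partners, values on every array are given for Zdhhc3 and Itga6, and for Adam17 in CD151KO and wild type. Genes beside Cd151 and Cd9 on their chromosomes were also read. The counts of calls, and the results of the members tested, of Cracr2b and of the partners named in the last section, were recomputed under further settings. These were pseudocounts of 1 and 64, quantile normalization, median centring, no filter, the filter raised to the 60th percentile, probe sets of a gene averaged and every probe set tested. Further settings were only the compared groups, no trend, array weights, a replicate block, a fold of at least 1.5 and each array left out in turn. Leaving out both arrays numbered 1 was added after seeing the data.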

Additional observations from a re-analysis of the deposited data

Results flagged for a closer look

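In 5 of 87 sets of arrays (1 gene in 1 group) a single array lay far from the others by Dixon's criterion, which chance alone meets in about 1 set in 20. Cd151 on CD151KO array 3 had a signal of 1027, below the 1061 to 1072 of the other CD151KO arrays. Cd81 on CD151KO array 5 had 5141, below 5236 to 5273. Tspan10 on CD151KO array 1 had 34.2, above 29.2 to 30.2. Cd37 on wild type array 1 had 285, above the 167 to 186 of the other wild type arrays. Prph2 on wild type array 1 had 16.4, above 12.2 to 12.7, at a signal below the filter. Of these, 3 lay on array 1 of CD151KO or of wild type, whose first principal component scores were the lowest.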

How the results depend on the processing

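Over the settings tried, no called difference of a tested member changed its direction. The same held for Cracr2b and for the partners Adam10, Adam17, Ap2m1, Cd44, Itga6, Prkca, Zdhhc2 and Zdhhc3. Other partners, neighbours and cell type markers were not followed across the settings. In CD151KO against wild type 2 members (Cd151 and Tspan4) passed in every setting, and 3 with array weights. In CD9KO against wild type 4 members passed as reported, 1 with a fold of at least 1.5, and 1 to 5 when an array was left out, with the lowest count without wild type array 3 and 2 without CD9KO array 5. In CD151KO against CD9KO 6 passed as reported, 3 with a fold of at least 1.5, 9 without wild type array 1, and 5 to 9 when an array was left out. Over all genes, CD151KO against wild type gave 101 calls, with 39 in a fit of only the compared groups, 335 with array weights, 45 without both arrays numbered 1, 14 with a fold of at least 1.5 and 24 to 101 when an array was left out. CD9KO against wild type gave 709 calls, with 1555 for every probe set, 1091 with array weights, 404 without both arrays numbered 1, 26 with a fold of at least 1.5 and 158 to 865 when an array was left out. CD151KO against CD9KO gave 1317 calls, with 64 at a fold of at least 1.5 and 683 to 1938 when an array was left out. The cause of these shifts was not tested.

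The labels do not say whether equal replicate numbers mark paired samples, and the values do not settle it. Same-number deviations from the group means correlated at -0.139 to 0.595 for CD151KO and wild type, against -0.491 to 0.393 for other pairs. For CD9KO and wild type the range was 0.011 to 0.18 (other pairs -0.171 to 0.17). Between the knockouts it was -0.097 to 0.212 (other pairs -0.237 to 0.206). In that order, 2 of 4, 3 of 4 and 1 of 5 samples correlated best with their own number. With the replicate number as a block 2, 4 and 7 members and 109, 1594 and 1825 genes passed in the 3 comparisons, in that order, and Cd53 was the member added between the knockouts (limma adjusted p = 0.0362). In CD151KO against wild type Adam17 (limma adjusted p = 0.0826) and Cracr2b (0.0531) no longer passed with the block. The block changed no other call of the members tested or of the partners followed across the settings. Differences of weak probe sets near a signal of 53.4 are limited by signal over background.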
